A study of Homo sapiens with 6 samples.

Results

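The genes of the mitochondrial genome were described in RNA sequencing of U87-MG, a human cell line from a glioblastoma. The members were the genes that the deposited table places on the chromosome MT. They were 37 of the 61806 genes in the table, namely 13 messenger RNA (mRNA) genes, 2 ribosomal RNA (rRNA) genes and 22 transfer RNA (tRNA) genes. Membership used the position alone and no measured value, although earlier results of these data were known when the members were chosen. Of these, 17 had a mean of at least 0.5 FPKM (read level scaled to gene length and library total) and were tested, namely all 13 mRNA genes, both rRNA genes, MT-TC and MT-TP, and the other 20 were not tested.

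The study asked what loss of GRIK1, a kainate receptor subunit, does to glioblastoma cells. It compared 3 libraries of wild-type U87-MG given the negative control (NC 1 to NC 3) with 3 libraries labelled as GRIK1 knockdown by siRNA (siRNA 1 to siRNA 3). The study designed 3 siRNAs and states that it chose siRNA1, the most efficient, for its later experiments. The sequencing is reported after that statement, but the labels number the libraries siRNA1 to siRNA3. They do not say whether these are replicates of 1 siRNA or the 3 sequences. From the labels alone, siRNA and replicate cannot be told apart. No label says that the libraries came from separate cultures, so p-values measure only the spread between these libraries.

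The human mitochondrial genome is a small circle without introns. Both of its strands are copied into long RNAs that run through many genes, and these are cut mainly at the tRNAs that lie between the rRNAs and mRNAs. The mRNAs encode core subunits of the respiratory chain and of ATP synthase. Nuclear genes encode the other subunits and the enzymes that copy, cut and stabilise mitochondrial RNA.

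Several genes share bases or touch, and this sets what a read count on them can mean. MT-ATP6 and MT-CO3 share 1 base, as do MT-TC and MT-TY, and MT-TI and MT-TQ share 3. The longest overlaps are those of MT-ATP8 with MT-ATP6, 46 bases, and of MT-ND4L with MT-ND4, 7 bases. These sequences, from the GENCODE 29 transcripts (GRCh38, plus strand), show the shared bases in capitals with 15 bases on each side. The first is MT:8512-8587 and the second is MT:10745-10781.
MT-ATP8/MT-ATP6: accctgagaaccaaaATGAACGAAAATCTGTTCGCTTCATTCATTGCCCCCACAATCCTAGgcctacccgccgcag
MT-ND4L/MT-ND4: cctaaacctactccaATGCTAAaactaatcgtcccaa

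The mRNA genes also differ in how they end, because a short poly(A) tail completes the stop codon of those that end in T or TA. In GENCODE 29, 6 of the 13 mRNAs ended in such a remnant (MT-ND1, MT-ND2, MT-CO3, MT-ND3, MT-ND4 and MT-CYB) and 7 ended in a whole codon. This follows the annotation. The last base of the whole codon of MT-ATP6 (MT:9207) is also the first base of MT-CO3, so 1 RNA cut there cannot give it to both. The last bases of 4 mRNAs are shown, with the final codon or its remnant in capitals, since these genes recur in the comparisons. MT-ND1 and MT-CYB end in a remnant, and MT-CO1 and MT-ND6 end in a whole codon.
MT-ND1: attccccctcaaaccTA
MT-CYB: atactcaaatgggccT
MT-CO1: gtatacataaaatctAGA
MT-ND6: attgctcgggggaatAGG
MT-ND6 is the only mRNA gene on the minus strand of the reference, and its own RNA held 35.6% G and 7.05% C. The 12 others held 6.28% to 16.2% G.

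The libraries held 11099909 to 14006968 counts. GRIK1 itself was counted 18, 9 and 8 times in NC and 15, 20 and 20 times in the libraries labelled siRNA. All 3 libraries labelled siRNA were above NC 2 and NC 3, also in FPKM, whereas NC 1 was the highest library in FPKM. The counts were therefore not consistently lower under the siRNA label and did not bear it out. GRIK1 stood at 0.13 to 0.38 FPKM, below the mean of 0.5 FPKM required for testing, so it was not tested. Counts this low cannot decide whether GRIK1 was reduced. The paper reports that its siRNAs knocked GRIK1 down efficiently in U87-MG. NC 3 stood apart from the other 5 libraries. Its log2 expression correlated with theirs across genes at 0.955 to 0.971, against 0.986 to 0.996 among the others. Genes of cytosolic ribosomal proteins took 9.26% of its counts against 4.73% to 5.43% elsewhere. The tests of single genes and the main shares and ratios are therefore given with and without NC 3. Of the markers of the line's origin, VIM and CD44 stood at 825 to 1076 and 50.8 to 71.6 FPKM, whereas GFAP, S100B, SOX2, NES and OLIG2 were at or below 0.83 FPKM. Of 12 markers of other cell types, 8 were at or below 0.07 FPKM in every library. The other 4 were SNAP25 (1.45 to 2.15 FPKM), SYT1 (0.19 to 0.84) and RBFOX3 (0.10 to 0.33) of neurons and CD68 (2.11 to 4.06) of macrophages.

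The mitochondrial share of all counts did not differ between the groups beyond the spread of NC. It was 5.54%, 5.68% and 4.16% in NC 1 to NC 3 and 4.90%, 5.22% and 5.25% in siRNA 1 to siRNA 3. NC 3 was the lowest of the 6 libraries, and NC 1 and NC 2 were the highest. The means were 5.13% ± 0.841 and 5.12% ± 0.198 (SD, n = 3 each), a difference of -0.00456 percentage points (two-sided exact permutation p = 1). Without NC 3 the groups did not overlap and the libraries labelled siRNA were lower by 0.488 points, with an exact permutation p = 0.2, the smallest that 2 against 3 allows. Counting error was small beside these differences, since the 95% interval (Wilson) ran from 5.53% to 5.55% in NC 1 and from 4.15% to 4.17% in NC 3. In these bulk samples, fewer mitochondria per cell and less RNA in each cannot be told apart.

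The mRNAs and the rRNAs did not move together in NC 3. The mRNA share of all counts was 4.54% in both NC 1 and NC 2, 2.92% in NC 3, and 4.0%, 4.21% and 4.24% in the libraries labelled siRNA. The rRNA share was 0.991%, 1.14% and 1.24% in NC and 0.889%, 1.01% and 1.00% in siRNA. NC 3 therefore had the lowest mRNA share and the highest rRNA share of the 6 libraries. The ratio of rRNA to mRNA counts was 0.218, 0.250 and 0.426 in NC and 0.222, 0.239 and 0.237 in siRNA. On the log2 scale the groups differed by -0.29 (exact permutation p = 0.5, adjusted p = 0.929 over the 13 shares and ratios compared). Without NC 3 this difference was -0.01. The rRNA shares and ratios describe these libraries and not levels in the cell, since they depend on how RNA was selected.

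**Figure D1:**
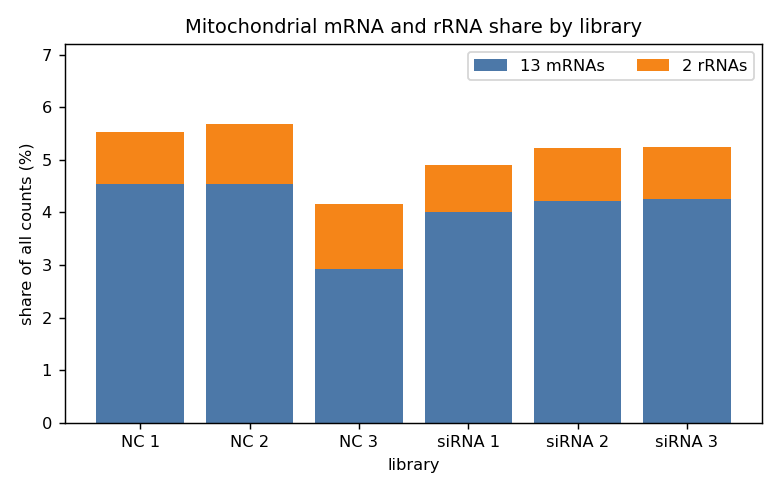
Share of all counts (%, vertical axis) on the 13 mitochondrial mRNAs and 2 rRNAs in each library. NC 3 has the lowest mRNA share, 2.92%, and the highest rRNA share, 1.24%.

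Both rRNA genes encode the RNA of the mitochondrial ribosome, MT-RNR1 that of its small subunit and MT-RNR2 that of its large subunit. MT-RNR2 (MT:1671-3229) had 9149, 10200 and 11497 CPM (counts scaled to the library total alone) in NC and 8020, 9062 and 9070 CPM in siRNA. All 3 libraries labelled siRNA were below all 3 NC libraries, by a small margin. The fitted log2 fold change was -0.34 ± 0.19 (SE), with an adjusted p of 0.310 (edgeR quasi-likelihood test). Without NC 3 it was -0.18 ± 0.06, with an adjusted p of 0.0202. MT-RNR1 (MT:648-1601) had 756, 1165 and 913 CPM in NC and 871, 1017 and 977 CPM in siRNA. Here NC 1 and NC 2, which were close on the mRNAs, were the lowest and the highest library. Its log2 fold change was -0.07 ± 0.19 with all libraries and -0.04 ± 0.11 without NC 3 (edgeR adjusted p = 0.826 and 0.849). Per length, MT-RNR2 stood at 7.40, 5.36 and 7.71 times MT-RNR1 in NC and at 5.64, 5.45 and 5.68 times in siRNA. The groups overlapped, and on the log2 scale they differed by -0.27 with all libraries and by -0.17 without NC 3 (exact permutation p = 0.4 and 0.8).

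The mRNAs were among the most abundant RNAs of the table. By mean FPKM over the 6 libraries, MT-CO1 held rank 1 with 9571 FPKM, MT-RNR2 rank 2 with 6093 and MT-CO2 rank 3 with 5219. MT-CO3 followed with 4913 and MT-ND4 with 4451. The order then ran through MT-ND2 (2400.4), MT-ATP6 (2347), MT-CYB (2040.1), MT-ND1 (2011), MT-ND5 (1441), MT-ND6 (1297), MT-ND3 (1112), MT-RNR1 (996), MT-ND4L (960) and MT-ATP8 (679), which held rank 37. Neighbours in this order overlapped in their ranges over libraries, among them MT-CO2 with MT-CO3 and MT-ND2 with MT-ATP6. MT-ND2 was above MT-ATP6 in the 3 NC libraries and below it in the 3 labelled siRNA, with 2457 ± 652 against 2220.3 ± 653 FPKM in NC and 2343 ± 126 against 2474 ± 172 FPKM in siRNA (SD, n = 3).

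**Figure D2:**
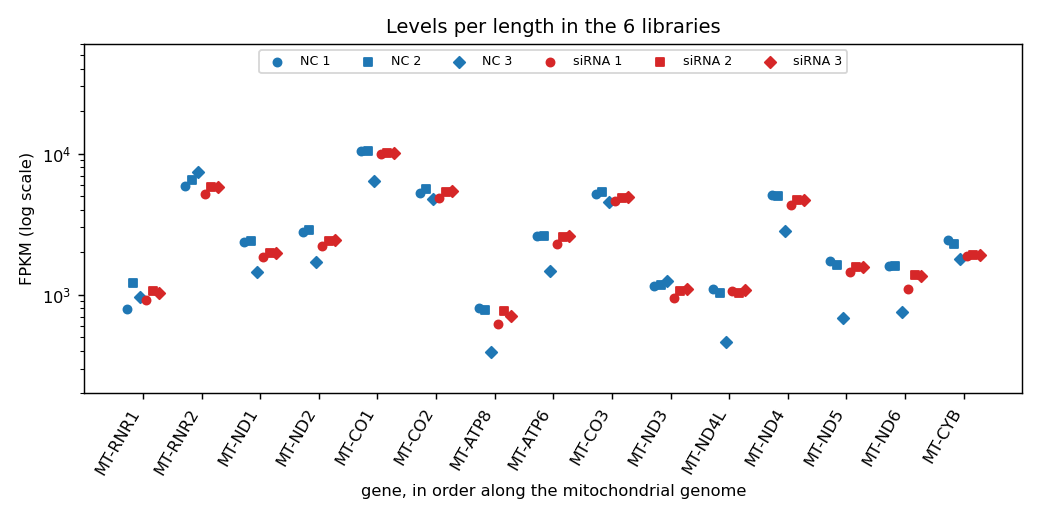
FPKM on a log scale for the 15 mRNA and rRNA genes in order along the genome, with 1 point per library (blue NC, red labelled siRNA; circle, square and diamond for libraries 1, 2 and 3). MT-CO1 is the highest mRNA and MT-ATP8 the lowest, and the blue diamond of NC 3 lies below the other points on 12 of the 13 mRNAs.

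MT-CO1, MT-CO2 and MT-CO3 encode the core of complex IV, cytochrome c oxidase. MT-CO1 (MT:5904-7445) had 16106, 16141 and 9886 CPM in NC and 15373, 15482 and 15567 CPM in siRNA. The coefficient of variation of the libraries labelled siRNA was 0.629%, and NC 3 was far below the rest. MT-CO2 had 3621, 3818 and 3267 CPM in NC and 3309, 3668 and 3736 in siRNA, and the groups overlapped. MT-CO3 had 4042, 4180.0 and 3578 CPM in NC and 3647, 3788 and 3875 in siRNA. With all libraries MT-CO1, MT-CO2 and MT-CO3 stood at log2 fold changes of 0.07 ± 0.20, -0.08 ± 0.15 and -0.15 ± 0.14 (edgeR adjusted p = 0.848, 0.739 and 0.537). Of these 3 genes, only MT-CO3 passed the edgeR test without NC 3, with a log2 fold change of -0.15 ± 0.04 (adjusted p = 0.0132), against -0.08 ± 0.03 for MT-CO1 (adjusted p = 0.0694) and -0.08 ± 0.05 for MT-CO2 (adjusted p = 0.237).

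The 7 ND genes encode membrane subunits of complex I, NADH dehydrogenase. MT-ND1 (MT:3307-4262) had 2279, 2297 and 1387 CPM in NC and 1775, 1890 and 1904 CPM in siRNA. MT-ND2 had 2923, 2982 and 1776 CPM in NC and 2293, 2494 and 2539 in siRNA. For both, the libraries labelled siRNA lay between NC 3 and the other NC libraries. With all libraries the log2 fold changes were -0.17 ± 0.18 for MT-ND1 and -0.14 ± 0.19 for MT-ND2 (edgeR adjusted p = 0.584 and 0.666). Without NC 3, edgeR gave log2 fold changes of -0.33 ± 0.05 for MT-ND1 (adjusted p = 3.4e-05) and -0.30 ± 0.05 for MT-ND2 (adjusted p = 0.000144).

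MT-ND4 had 7057, 6955 and 3908 CPM in NC and 5943, 6464 and 6473 in siRNA. MT-ND4L, whose last bases overlap it, had 325, 305 and 136 CPM in NC and 318, 307 and 319 in siRNA. MT-ND5 had 3151, 2940.3 and 1249 CPM in NC and 2638, 2832 and 2862 in siRNA. NC 3 was the lowest library on all 3 of these genes. With all libraries MT-ND4, MT-ND4L and MT-ND5 stood at log2 fold changes of 0.01 ± 0.22, 0.24 ± 0.26 and 0.12 ± 0.29 (edgeR adjusted p = 0.987, 0.585 and 0.809). Without NC 3, MT-ND4 and MT-ND5 passed the edgeR test at log2 fold changes of -0.18 ± 0.04 (adjusted p = 0.00433) and -0.16 ± 0.05 (adjusted p = 0.0170), and MT-ND4L stood at -0.03 ± 0.05 (adjusted p = 0.715).

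MT-ND3 (MT:10059-10404) was the exception among the mRNAs, since it was not reduced in NC 3. It had 399, 408 and 432 CPM in NC and 326, 367 and 378 CPM in siRNA, and the groups did not overlap. Its log2 fold change was -0.30 ± 0.14 with all libraries (edgeR adjusted p = 0.224) and -0.20 ± 0.06 without NC 3 (adjusted p = 0.0112).

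MT-ND6 (MT:14149-14673, minus strand) is the mRNA made from the strand opposite to the other 12. It had 837, 834 and 399 CPM in NC and 575, 730.0 and 711 CPM in siRNA. The libraries labelled siRNA again lay between NC 3 and the others, and siRNA 1 was the lowest of them. Its log2 fold change was -0.10 ± 0.25 with all libraries (edgeR adjusted p = 0.819) and -0.34 ± 0.07 without NC 3 (adjusted p = 0.00165). Per length, MT-ND6 stood at 0.467, 0.463 and 0.328 times the mean of the other 12 mRNAs in NC and at 0.364, 0.437 and 0.421 times in siRNA. That ratio differed by -0.03 on the log2 scale between the groups (exact permutation p = 1) and by -0.19 without NC 3 (exact permutation p = 0.2). Whether reads were counted by strand was not given in the sources used here, and without strand, RNA of either strand at this gene is counted together.

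MT-CYB (MT:14747-15887) encodes cytochrome b, the mitochondrial subunit of complex III. It had 2770.2, 2630.5 and 2061 CPM in NC and 2158, 2178 and 2169 CPM in siRNA. The 3 libraries labelled siRNA varied by 0.466% (coefficient of variation), the smallest spread of the 15 mRNA and rRNA genes. The log2 fold change was -0.28 ± 0.14 with all libraries (edgeR adjusted p = 0.263) and -0.34 ± 0.04 without NC 3 (adjusted p = 1.0e-05), the smallest adjusted p of the members in that fit.

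MT-ATP6 and MT-ATP8 encode subunits of ATP synthase, complex V, on 1 shared RNA. MT-ATP6 had 1768, 1769 and 999 CPM in NC and 1550.2, 1741 and 1763 in siRNA. MT-ATP8 had 168, 160.5 and 81.2 CPM in NC and 129, 159 and 146 in siRNA. Both were lowest in NC 3. With all libraries the log2 fold changes were 0.09 ± 0.20 for MT-ATP6 and 0.02 ± 0.23 for MT-ATP8 (edgeR adjusted p = 0.807 and 0.968). Without NC 3, edgeR gave -0.10 ± 0.05 for MT-ATP6 (adjusted p = 0.192) and -0.21 ± 0.07 for MT-ATP8 (adjusted p = 0.0223). Per length, MT-ATP8 stood at 0.267 to 0.312 times MT-ATP6 in the 6 libraries, although the genes lie on the same RNA, and how reads in their 46 shared bases were assigned was not given in the sources used here.

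The departure of NC 3 thus differed from gene to gene. Relative to the mean of NC 1 and NC 2, NC 3 had 0.410 times the CPM for MT-ND5, 0.433 for MT-ND4L, 0.477 for MT-ND6 and 0.494 for MT-ATP8. It had 0.558 to 0.613 times for MT-ND4, MT-ATP6, MT-ND2, MT-ND1 and MT-CO1. It had 0.763 times for MT-CYB, 0.870 for MT-CO3, 0.878 for MT-CO2, 1.07 for MT-ND3, 0.95 for MT-RNR1 and 1.19 for MT-RNR2. NC 3 was the lowest of the 6 libraries on 12 of the 13 mRNAs (92.3%), against 44.6% of the 15870 genes tested. The spread within NC followed, with coefficients of variation up to 42.6% for MT-ND5, while those within siRNA reached 12.6% at most, for MT-ND6. What set NC 3 apart was not tested.

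**Figure D3:**
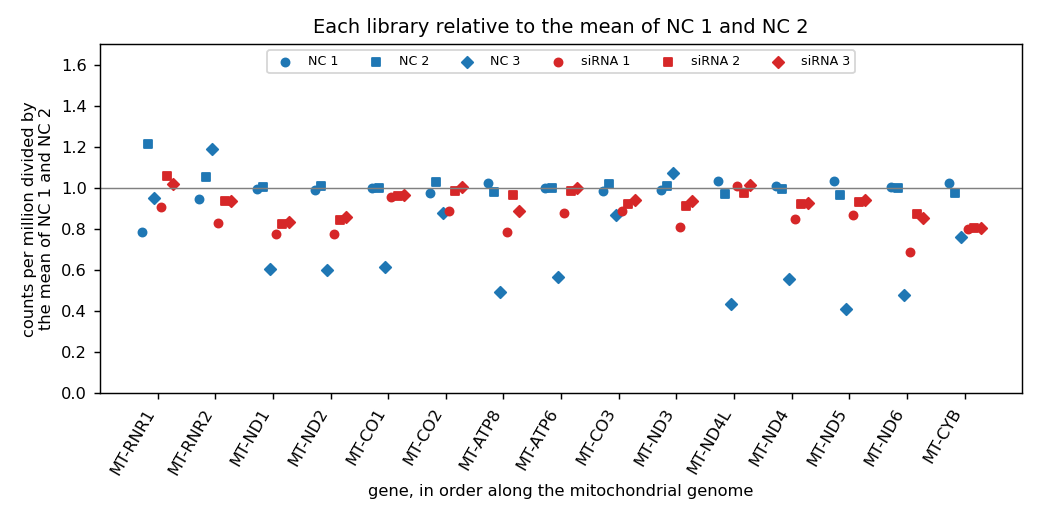
CPM of each library divided by the mean CPM of NC 1 and NC 2 for the same gene, in genome order (blue NC, red labelled siRNA; line at 1). NC 3, the blue diamond, lies between 0.410 (MT-ND5) and 1.19 (MT-RNR2).

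With all 6 libraries, 0 of the 17 members tested passed an adjusted p of 0.05 in edgeR, where 3.09% of all genes tested did. At an unadjusted p under 0.05 edgeR gave 1 of 17 (5.88%), MT-TP, against 25.1% of all genes tested. DESeq2 called 0 at an adjusted p of 0.05, against 10.6% of all genes, and limma called 0, against 2.56%. The median log2 fold change of the 17 was -0.10, with 6 positive, against -0.02 over all genes tested. In CPM, 3 of the 17 (MT-RNR2, MT-ND3 and MT-TC) had groups that did not overlap, against 38.4% of all genes tested.

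Without NC 3 the count changed. Of the 17 members, 11 (64.7%) were lower in the libraries labelled siRNA at an adjusted p under 0.05 in edgeR, against 18.3% of all genes tested. None was higher, against 16.9% of all genes. DESeq2 called the same 11 genes without NC 3. Since the genes are copied on shared long RNAs, the 11 are not independent observations and are not read as an enrichment. Leaving out NC 3, the lowest library on 12 of the 13 mRNAs, raised the NC means of those 12 together. The share called was larger among abundant genes. Of the 2692 genes that averaged 1000 counts or more, 32.1% were lower, and of the 15 members at that level 10 (66.7%) were. Those 15 averaged 1718 to 181371 counts, and the 2692 genes were not matched to them beyond the threshold of 1000. The changes were small. All 17 fold changes were negative with a median of -0.18, against 0.01 over all genes tested, and no called member reached a log2 fold change of -1. The fit without NC 3 had 2 NC libraries, and its common dispersion was 0.00298 against 0.0391 with all 6. Fold changes moved as well, for example from 0.01 to -0.18 for MT-ND4 and from 0.12 to -0.16 for MT-ND5.

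**Figure D4:**
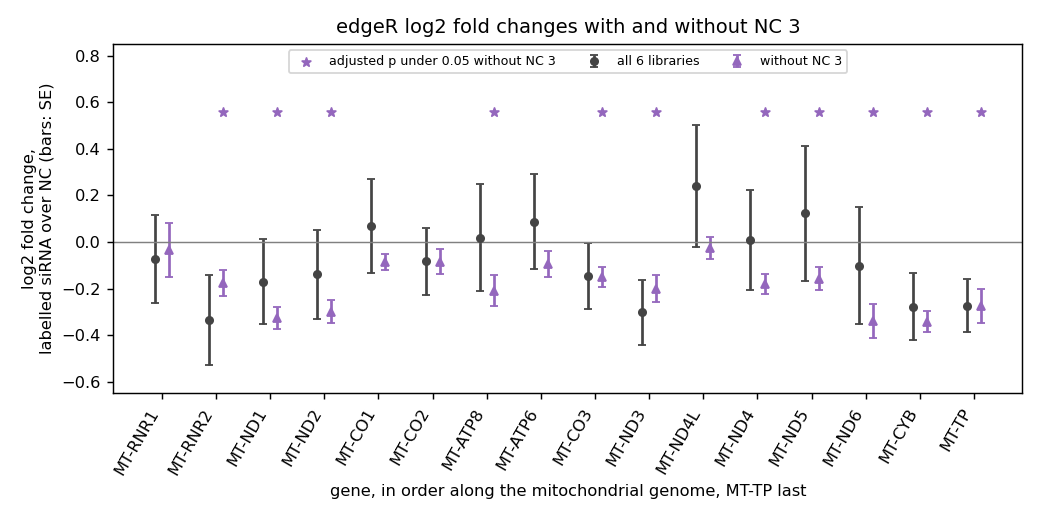
edgeR log2 fold change of the libraries labelled siRNA over NC with its SE for the 15 mRNA and rRNA genes and MT-TP, with all libraries (grey circles) and without NC 3 (purple triangles). Stars mark the 11 genes with an adjusted p under 0.05 without NC 3, all of them below 0.

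Within the mRNAs the composition did not depend on the scaling of the libraries. MT-CYB made up 6.10%, 5.79% and 7.07% of the mRNA counts in NC and 5.39%, 5.17% and 5.11% in siRNA. MT-ND1 made up 5.02%, 5.06% and 4.76% in NC and 4.43%, 4.49% and 4.49% in siRNA. MT-ND2 made up 6.43%, 6.57% and 6.09% in NC and 5.73%, 5.92% and 5.98% in siRNA. For these 3 genes every library labelled siRNA was below every NC library, NC 3 included.

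MT-CO1 lay the other way, with 35.4%, 35.5% and 33.9% of the mRNA counts in NC and 38.4%, 36.8% and 36.7% in siRNA. MT-ND4L made up 0.715%, 0.671% and 0.468% in NC and 0.793%, 0.730% and 0.752% in siRNA. These 5 of the 13 mRNAs had groups that did not overlap, each with an exact permutation p = 0.1, the smallest that 3 against 3 allows, and an adjusted p of 0.26 over the 13. None therefore passed the correction. Composition has no such share over all genes, but in CPM 38.4% of all genes tested had groups that did not overlap. The 5 are therefore not read as a result about the mitochondrial mRNAs. Without NC 3, 6 of the 13 did not overlap in composition, namely these 5 and MT-ND6. Composition values are shares of 1 total, so a larger share of MT-CO1 leaves less for the other genes.

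By complex, the ND genes of complex I made up 37.3%, 36.8% and 31.9% of the mRNA counts in NC and 34.6%, 35.8% and 35.8% in siRNA. The complex IV genes made up 52.3%, 53.1% and 57.4% in NC and 55.8%, 54.5% and 54.6% in siRNA. In both cases NC 3 was the extreme library, and with all libraries the means differed by less than the SD of NC. Without NC 3 the groups did not overlap, and the difference (labelled siRNA minus NC) was -1.66 points for complex I and 2.23 points for complex IV (exact permutation p = 0.2 each, the smallest possible). The complex V genes made up 3.70% to 4.26% in NC and 4.19% to 4.51% in siRNA, higher by 0.331 points with all libraries and by 0.147 points without NC 3 (exact permutation p = 0.3 and 0.6). The ratio of MT-ND4L to MT-ND4 per length was 0.214, 0.203 and 0.162 in NC and 0.248, 0.221 and 0.229 in siRNA, without overlap (exact permutation p = 0.1, adjusted p = 0.65 over 13 shares and ratios). On the log2 scale it was higher in siRNA by 0.277 with all libraries and by 0.156 without NC 3 (exact permutation p = 0.2 for the latter).

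The genes annotated to end in a whole codon and those that end in a remnant were set side by side as a description. MT-ATP6, whose last annotated base is also the first of MT-CO3, was placed with the former. For the 7 with a whole codon the median log2 fold change was 0.07 with all libraries, ranging from -0.10 to 0.24. The 6 with a remnant had a median of -0.16, ranging from -0.30 to 0.01. The ranges overlapped, and without NC 3 the medians were -0.10 and -0.25.

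The tRNA genes, of 59 to 75 bases, were nearly all without reads. Of the 22, 19 had 0 counts in all 6 libraries, which allows up to 3 counts in each, or 0.214 to 0.270 CPM. MT-TF had 1 count, in siRNA 1. MT-TC, the tRNA for cysteine, had 4, 3 and 7 counts in NC and 0, 3 and 0 in siRNA, so its fitted fold change is not interpretable. MT-TP, the tRNA for proline, had 692, 659 and 745 counts in NC and 587, 644 and 725 in siRNA. The sequences of these tRNAs are shown 5′ to 3′ (MT:15956-16023 and MT:5761-5826, both minus strand), since they are the pair with more than 1 count.
MT-TP: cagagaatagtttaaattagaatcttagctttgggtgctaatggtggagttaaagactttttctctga
MT-TC: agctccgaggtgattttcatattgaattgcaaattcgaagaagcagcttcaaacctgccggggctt

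MT-TP borders the control region, the stretch that holds the promoters and the start of replication, as does MT-TF. MT-TP was read at 62.3, 59.2 and 53.2 CPM in NC and 47.4, 51.0 and 54.9 CPM in siRNA, and held rank 30 by mean FPKM. The groups overlapped through NC 3 and siRNA 3. Its log2 fold change was -0.27 ± 0.11 with all libraries (edgeR adjusted p = 0.189) and -0.27 ± 0.07 without NC 3 (adjusted p = 0.00802). Whether these reads came from the tRNA, from its precursor or from RNA of the other strand was not tested.

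Copies of mitochondrial genes lie in the nuclear genome as pseudogenes, and their reads are hard to tell from those of the originals. The table listed 404 of them, of which 314 had 0 counts and 3 had a mean of at least 10. These 3, all within 1 stretch of chromosome 1, held 98.3% of the counts on such copies. MTATP6P1 (chr1:633696-634376) differed from MT-ATP6 at 10 of 681 bases. In the windows below, from GENCODE 29 (MT:8642-8701 and chr1:633811-633870, plus strand), the 3 bases that differ of 60 are in capitals.
MT-ATP6: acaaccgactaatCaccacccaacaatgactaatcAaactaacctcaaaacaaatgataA
MTATP6P1: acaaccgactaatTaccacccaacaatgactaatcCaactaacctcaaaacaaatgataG

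MTATP6P1 had 2394, 2340 and 1713 counts in NC and 2276, 2746 and 2778 in siRNA. Divided by the counts on MT-ATP6, these were 12.2%, 11.9% and 12.2% in NC and 11.9%, 12.5% and 11.9% in siRNA. The copy was therefore low in NC 3 together with its mitochondrial gene, and the ratio varied little over the 6 libraries. MTND2P28 (98.4% identical) stood at 3.42% to 4.01% of MT-ND2 and MTCO1P12 (98.7% identical) at 0.150% to 0.166% of MT-CO1, likewise with NC 3 inside the range of the others. MTCO2P12, which lies between the copies of MT-CO1 and MT-ATP6 and was 98.2% identical to MT-CO2, had only 2 to 10 counts. MTND4P12 had 3 to 10. How reads with several places were treated was not given in the sources used here, so the split between gene and copy is uncertain.

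**Figure D5:**
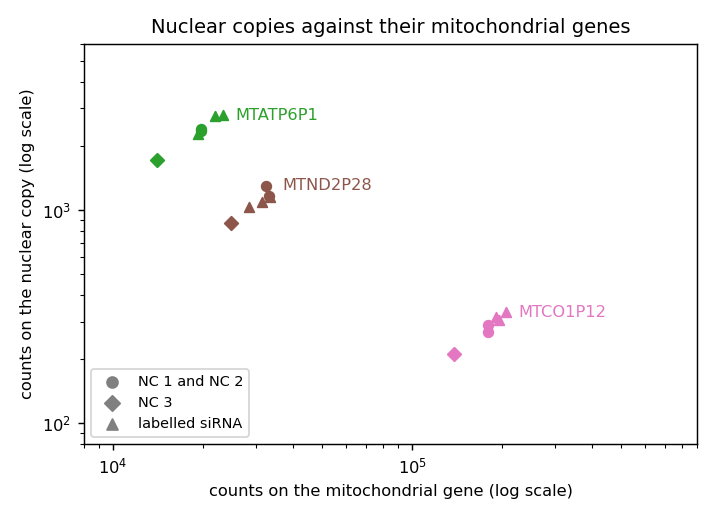
Counts on 3 nuclear copies (vertical, log scale) against counts on the mitochondrial gene each resembles (horizontal, log scale), 1 point per library. In each cluster NC 3 (diamond) is low on both axes, and MTATP6P1 stays at 11.9% to 12.5% of MT-ATP6.

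The nuclear genes that make and maintain mitochondrial RNA were taken from a list of 67, of which 66 were tested. With all libraries 0 passed an adjusted p of 0.05 in edgeR, and the median log2 fold change was 0.00. An unadjusted p under 0.05 was reached by 15 (22.7%, against 25.1% of all genes tested), DESeq2 called 4 (6.06%, against 10.6%) and limma 0. Without NC 3, 12 (18.2%) were higher and 11 (16.7%) lower, against 16.9% and 18.3% of all genes, so the list was close to the background. TFAM, which packages mitochondrial DNA and starts its transcription, had 61.3, 58.6 and 90.0 CPM in NC and 50.5, 52.1 and 44.7 CPM in siRNA. All libraries labelled siRNA were below all NC libraries, and NC 3, lowest on most mitochondrial mRNAs, was highest on TFAM. Its log2 fold change was -0.62 ± 0.22 (edgeR adjusted p = 0.149), and -0.31 ± 0.08 without NC 3 (adjusted p = 0.00353).

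POLRMT, the mitochondrial RNA polymerase, had 51.1, 52.7 and 29.4 CPM in NC and 53.4, 51.7 and 48.3 in siRNA, with a log2 fold change of 0.13 ± 0.19 (-0.05 ± 0.07 without NC 3). The elongation factor TEFM stood at 0.27 ± 0.20 (0.34 ± 0.18 without NC 3) and the helicase TWNK at 0.00 ± 0.16 (-0.12 ± 0.11 without NC 3). None of these 3 passed the edgeR test in either fit. POLG, the DNA polymerase of mitochondria, had 65.9, 61.6 and 35.4 CPM in NC and 93.3, 92.9 and 89.5 CPM in siRNA. Its groups did not overlap, with log2 fold changes of 0.69 ± 0.19 with all libraries (edgeR adjusted p = 0.0897) and 0.50 ± 0.06 without NC 3 (adjusted p = 5e-06).

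Of the enzymes that cut the primary transcript at tRNAs, ELAC2 stood at a log2 fold change of 0.23 ± 0.19 and TRMT10C at -0.47 ± 0.24. LRPPRC and SLIRP, which bind and stabilise the mRNAs, stood at -0.21 ± 0.16 and -0.24 ± 0.29, and MTPAP, the poly(A) polymerase, at 0.00 ± 0.14. None of these 5 passed the edgeR test with or without NC 3. The 3 genes of the list with the smallest p were MRRF, the ribosome recycling factor (-0.46 ± 0.11, edgeR adjusted p = 0.0651), DNA2, a nuclease and helicase (0.86 ± 0.20, adjusted p = 0.0670), and TUFM, the translation elongation factor (-0.49 ± 0.13, adjusted p = 0.0816). Without NC 3 they stood at -0.43, 0.67 and -0.39, and all 3 passed.

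The listed nuclear genes of the respiratory chain and ATP synthase (complexes I to V) went the other way from the mitochondrial mRNAs in NC 3. Of the 79 tested, 64 (81.0%) were highest in NC 3 of all 6 libraries, against 26.9% of all genes tested. Their median ratio of NC 3 to the mean of NC 1 and NC 2 was 1.54, against 0.602 for the 13 mitochondrial mRNAs and 0.855 for all genes tested. With all libraries 0 of the 79 passed in edgeR, and the median log2 fold change was -0.35, with 10 positive. An unadjusted p under 0.05 was reached by 16 (20.3%, against 25.1% of all genes tested), DESeq2 called 2 (2.53%, against 10.6%) and limma 0. Without NC 3 the median was -0.06, with 9 (11.4%) higher and 14 (17.7%) lower, against 16.9% and 18.3% of all genes.

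The 3 subunit genes with the smallest p had lower means in the libraries labelled siRNA and did not pass the correction. UQCRFS1, the iron-sulfur subunit of complex III, had 67.6, 71.1 and 107 CPM in NC and 54.3, 50.8 and 46.6 in siRNA (log2 fold change -0.80 ± 0.23, edgeR adjusted p = 0.10). NDUFB10 of complex I stood at -0.55 ± 0.17 (adjusted p = 0.107) and COX5A of complex IV at -0.42 ± 0.13 (adjusted p = 0.113). Without NC 3 all 3 passed, UQCRFS1 at -0.48 (edgeR adjusted p = 6.3e-05), NDUFB10 at -0.36 (adjusted p = 0.00155) and COX5A at -0.31 (adjusted p = 0.000711).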

How the data were processed

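Total RNA of 6 U87-MG samples was sequenced with a VAHTS Universal V8 kit. Whether poly(A) RNA was selected or rRNA removed is not described here, and the rRNA and tRNA levels depend on that step. The submitters' processing notes name cutadapt 1.9.1, HISAT2, HTSeq and GRCh38. The strand setting and the treatment of reads with several places are not given in the sources used here. The authors deposited whole-number counts per gene without normalization, and FPKM that the authors computed from them. The formula, scaled by total count and gene length, gave 100% of the FPKM values within 0.0051. Columns of values with no sample numbered 0.

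Groups came from the sample titles. Genes with a mean FPKM of at least 0.5 (15870) were tested with edgeR 4.0.16 (R 4.3.3, TMM, quasi-likelihood, no covariate, Benjamini-Hochberg over all genes, threshold 0.05). Shares and ratios were tested with two-sided exact permutation tests (scipy 1.17.1), which cannot go below 0.1 for 3 against 3 libraries, adjusted over 13 measures or over the 13 mRNAs. DESeq2 1.42.0, limma 3.58.1 on log2(FPKM + 1), other scalings, filters, a replicate block and leaving out libraries were alternatives. Intervals and limits of 3 counts cover counting error only.

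Sequences, gene types and positions came from GENCODE 29 (GRCh38), which matched 37 of 37 mitochondrial genes in position and length. Named genes were every mitochondrial gene (values by library for mRNAs, rRNAs and tRNAs with a mean of at least 10 counts), 10 nuclear genes of mitochondrial expression, the 3 smallest p of each nuclear list where none passed, and the 5 nuclear copies with the highest mean count. MT-TC and MT-TF were named after their values were seen, because few tRNAs had counts. The members and lists were chosen with earlier results of these data known. Same-numbered libraries did not deviate together.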

Additional observations from a re-analysis of the deposited data

How the results depend on the processing

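No mitochondrial gene passed in any of the alternatives with all 6 libraries, and leaving out 1 library gave 0 to 11 of 17 (11 without NC 3 in edgeR, 11 in DESeq2 without NC 3, an alternative chosen after seeing the data). The median log2 fold change of these genes ranged over the leave-outs from -0.18 to -0.03 and was 0.00 in limma. Calls over all genes were 490, and 1403 without a filter, 1684 in DESeq2, 4210 in DESeq2 without NC 3, and 0 to 5591 when 1 library was left out, where each library except NC 3 gave 0 (2238 to 4434 at an unadjusted p under 0.05). With the replicate number as a replicate block edgeR called 0 (3324 unadjusted), and 0 of the members. The numbers did not pair the libraries, since same-numbered libraries correlated in their deviations at -0.027, 0.0252 and -0.021. For the nuclear expression list (67 genes, 66 past the filter), 2 passed without a filter, 4 in DESeq2, 12 in DESeq2 without NC 3, and 0 to 23 in the leave-outs. For the respiratory chain and ATP synthase list (79 genes) these were 3, 2, 16 and 0 to 23. Over all genes the same settings called 1403 of 34080, 1684 of 15870 (10.6%), 4210 of 15870 and 0 to 5591 of 15870. The list counts are therefore not read as a result about the lists. 

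The difference in mitochondrial share changed sign from -0.00456 points to 0.483 with FPKM in place of counts, and ranged from -0.488 to 0.273 in the leave-outs. With rRNA genes left out of both the share and its total it was 0.147, and for mRNAs among protein-coding genes 0.184. Both leave out the mitochondrial rRNAs, and the mRNA share of all counts itself differed by 0.152 points. The MT-ND6 ratio ranged from -0.194 to 0.0606 in the leave-outs. It was 0.00566 without the 4 genes of the longest overlaps (MT-ATP8, MT-ATP6, MT-ND4L and MT-ND4). The rRNA to mRNA ratio kept its sign throughout, but its difference fell from -0.294 to -0.00569 without NC 3, so the sign there carries no weight. Leaving out 1 library gave 5 to 8 mRNAs whose composition did not overlap (8 without NC 1). Among the 9 mRNAs without those 4 genes, 3 did not overlap. Fold changes of single genes near 0 changed sign. Over the leave-outs MT-RNR1 ranged from -0.233 to 0.0685, MT-CO1 from -0.0847 to 0.158, MT-ATP8 from -0.209 to 0.165, MT-ATP6 from -0.0954 to 0.194, MT-ND4L from -0.0260 to 0.424, MT-ND4 from -0.180 to 0.115, MT-ND5 from -0.158 to 0.321 and MT-ND6 from -0.340 to 0.0372. In DESeq2 without NC 3 the values were -0.0828 for MT-CO1, -0.208 for MT-ATP8, -0.0934 for MT-ATP6, -0.0241 for MT-ND4L, -0.178 for MT-ND4 and -0.156 for MT-ND5. In limma MT-RNR1 was 0.0348, MT-CO2 0.00189 and MT-ND6 0.0328. Without a filter MT-ATP8 was -0.00262 and MT-ND4 -0.0141. The cause of these changes was not tested. The 3 libraries a group, the distance of NC 3 and overlapping or duplicated genes limit what the counts resolve.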
